A study of Mus musculus with 2 samples.

Results

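Semaphorins, plexins and neuropilins are a family of guidance cues and their receptors, represented here by 31 genes: 20 semaphorins, 9 plexins and both neuropilins. They were chosen by gene symbol, and all 31 were found among the 43346 Ensembl genes of the tables. The tissue was the hindbrain of healthy mouse embryos of strain B6NCrl at 11.5 days, untreated and with no engineered allele in the labels, males and females together. There was 1 group of 2 biological replicates: pool 1 combined hindbrains of 109 embryos and pool 2 of 88. Libraries started from 10 ng of total RNA above 200 nt in size, to which ERCC spike-ins, synthetic RNAs of known sequence, had been added. No question is stated in the labels, so the members are described by their level, their transcripts and the spread between the pools, and a difference between the pools carries no p-value.

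Semaphorins signal through plexins, whose intracellular part acts on small GTPases and through them on the cytoskeleton of growth cones and migrating cells. Class 3 semaphorins are secreted and, with exceptions such as Sema3e, reach class A plexins through a neuropilin, which binds the ligand but has little signalling activity of its own. Classes 4 to 6 span the membrane and bind plexins directly, and class 7 is tethered to the membrane by a lipid anchor. In the embryonic brainstem these proteins are known for steering cranial nerve and commissural axons, neural crest streams, migrating neurons and blood vessels.

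Levels are given in TPM, a transcript's share of the library after adjustment for its length, first for pool 1 and then for pool 2, or as mean ± SD (n = 2). Reads are expected counts, the estimated number of reads that belong to a gene or transcript. Expected counts over all entries of the tables summed to 45340440 in pool 1 and 41261544 in pool 2, and the members held 49843 and 47028 of them. A gene was called detected where both pools had a TPM of 1 or more. Of the hindbrain markers 5 of 6 were detected, the exception being Egr2 (0.99 and 0.77), against 1 of 4 forebrain markers. Markers of other cells were present: all 6 genes each for endothelium, macrophages, mesenchyme, and neural crest with sensory ganglia were detected. So were all 4 genes each for erythroid cells and epithelium, and 4 of 6 for skeletal muscle. Of protein-coding nuclear genes 59.4% were detected. The erythroid marker Hbb-y stood at 7661 and 7091 TPM. In bulk tissue, fewer cells of a type and less RNA per cell cannot be told apart, and no level below is assigned to a cell type.

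Most of the family was present, at modest levels. Of the 31 members 28 were detected (18 of 20 semaphorins, 8 of 9 plexins and both neuropilins), against 59.4% of protein-coding nuclear genes. The exceptions were Sema3b, Sema3g and Plxnb3. By mean TPM 16 members stood at 5 or more and 13 at 10 or more, and 7 lay above 17.0, the median of the 13020 protein-coding nuclear genes whose mean TPM was 1 or more (called expressed below). Ordered by mean TPM, 15 of the 30 pairs of neighbours kept the same order in both pools. The members summed to 337.9 and 344.1 TPM, of which Plxnb2 alone gave 18.6% and 17.2%. Semaphorins together stood at 165.8 ± 7.21 TPM and their receptors, plexins and neuropilins, at 175.2 ± 2.84, a log2 ratio of receptors to semaphorins of 0.14 in pool 1 and 0.02 in pool 2 (0.08 ± 0.09).

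**Figure D1:**
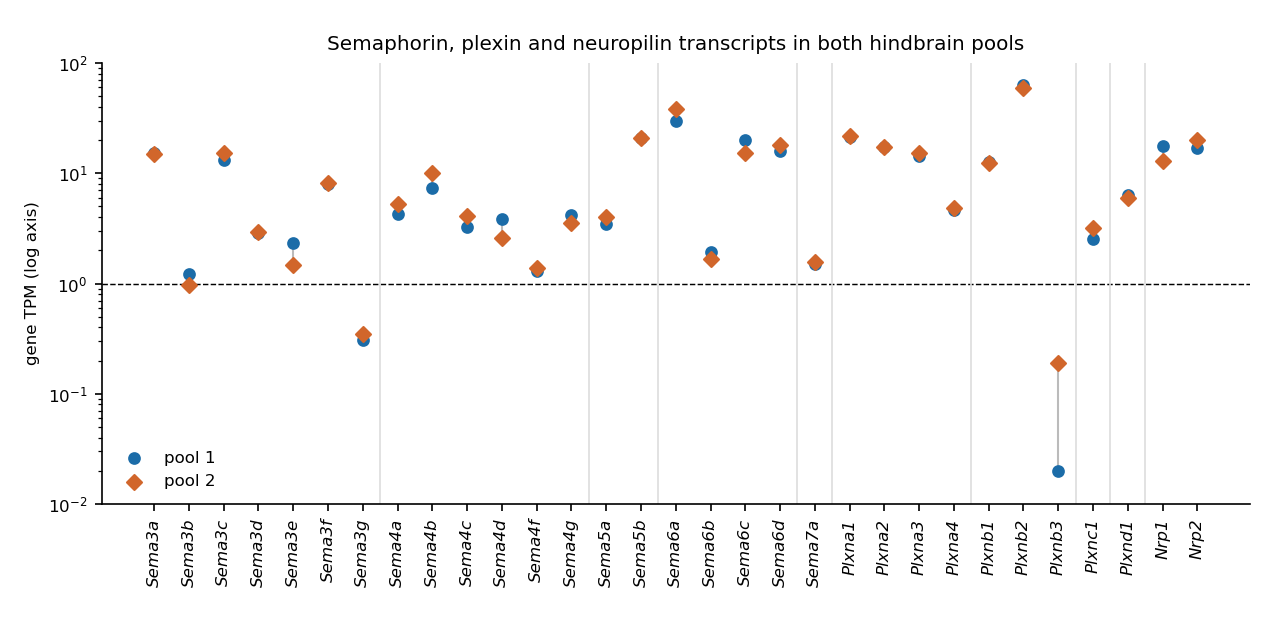
Gene TPM on a log axis for each member, grouped by class with grey dividers; circles are pool 1, diamonds are pool 2, a grey line joins the pools and the dashed line marks a TPM of 1. Plxnb2 and Sema6a were highest in both pools, and Sema3g and Plxnb3 lay below the line in both.

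Among the secreted class 3 semaphorins, which summed to 43.7 ± 0.891 TPM over 7 genes, Sema3a and Sema3c led. Sema3a, the repellent of sensory and motor axons that binds Nrp1, stood at 15.17 and 14.99 TPM (15.1 ± 0.127; 2352 and 2234 reads; GRCm38 chr5:13125414-13602565, plus strand). Sema3c, which can bind either neuropilin and is known for the heart's outflow tract, stood at 13.1 and 15.4 TPM (14.3 ± 1.62; 1590 and 1646 reads; chr5:17574281-17730268). Sema3f, the principal Nrp2 ligand, stood at 8.04 and 8.23 TPM (8.14 ± 0.134; 646 and 629 reads; chr9:107681500-107710475, minus strand). The pools differed little for Sema3a and Sema3f, and Sema3c was higher in pool 2 on gene TPM but not on coding transcripts alone (8 and 7.07 TPM).

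The remaining class 3 genes were low. Sema3d stood at 2.85 and 2.91 TPM. Sema3e, which binds Plxnd1 without a neuropilin, stood at 2.34 and 1.47 TPM on 443 and 274 reads. Sema3b stood at 1.23 and 0.96 TPM, on 114 and 79 reads, which put pool 2 just under the detection level. Sema3g, known from vascular endothelium, was lowest at 0.31 and 0.35 TPM (0.33 ± 0.028; 41 and 44 reads; chr14:31217860-31230352).

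The class 4 semaphorins, transmembrane ligands of mainly class B plexins, summed to 25.6 ± 1.87 TPM over 6 genes without a dominant member. Sema4b was the highest of them in both pools at 7.39 and 10.0 TPM (8.72 ± 1.87; 711 and 866 reads). Sema4a stood at 4.29 and 5.29 TPM, and Sema4c, a ligand of Plxnb2, at 3.25 and 4.07. These 3 genes were all higher in pool 2. Sema4g, which also acts through Plxnb2 in the cerebellum, stood at 4.17 and 3.54 TPM, and Sema4d, the classical ligand of Plxnb1, at 3.87 and 2.59 on 497 and 321 reads. Those 2 were higher in pool 1. Sema4f was the lowest gene of classes 4 to 7, at 1.29 and 1.38 TPM (1.34 ± 0.064; 147 and 156 reads; chr6:82911885-82939769, minus strand).

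Class 5 semaphorins carry thrombospondin repeats outside the cell. Sema5b stood at 20.7 and 20.8 TPM (20.8 ± 0.106; 2062 and 1900 reads; chr16:35541145-35664732), level between the pools, and Sema5a at 3.48 and 3.99 TPM on 1095 and 1208 reads. The distance between the genes was wider in TPM than in reads, since the deposited length of Sema5a was 10809 nt, against 3487 and 3326 nt for Sema5b. Sema7a, which acts on integrin beta 1 and Plxnc1, stood at 1.5 and 1.57 TPM (141 and 142 reads).

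Class 6 was the most abundant semaphorin class, at 70.5 ± 3.93 TPM over 4 genes. Sema6a, a ligand of Plxna2 and Plxna4 known for granule cell migration in the cerebellum, stood at 29.9 and 38.3 TPM (34.1 ± 5.90; 3511 and 3922 reads). Sema6c stood at 20.1 and 15.3 TPM (17.7 ± 3.34; 1705 and 1131 reads; chr3:95160457-95174024). Sema6a was higher in pool 2 and Sema6c in pool 1, and Sema6a exceeded Sema6c in both. Sema6d, a ligand of Plxna1, stood at 15.75 and 17.97 TPM (16.9 ± 1.57; 2690 and 2750 reads; chr2:124089969-124667770). Sema6b, a ligand of Plxna4, was low at 1.95 and 1.67 TPM.

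Sema6d transcripts differed in a pair of coding exons, shown here because the protein-coding transcripts divided on both. The exons are given from transcript Sema6d-206 with 24 flanking transcript bases on each side, 5′ to 3′, the exon in capitals (GENCODE vM21 transcripts, GRCm38, plus strand), at chr2:124660705-124660761 and chr2:124662204-124662371.
57-nt exon: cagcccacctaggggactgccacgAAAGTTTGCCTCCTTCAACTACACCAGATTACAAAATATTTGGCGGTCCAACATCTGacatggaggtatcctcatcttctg
168-nt exon: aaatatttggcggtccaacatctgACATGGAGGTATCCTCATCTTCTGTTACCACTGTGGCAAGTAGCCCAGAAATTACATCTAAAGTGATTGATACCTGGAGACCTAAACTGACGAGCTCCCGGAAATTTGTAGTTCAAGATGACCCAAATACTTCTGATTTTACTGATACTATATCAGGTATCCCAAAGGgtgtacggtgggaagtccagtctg
Protein-coding transcripts with the 57-nt exon held 58.7% and 61.9% of the coding TPM that could be assigned (60.3 ± 2.30%; 1483 and 1513 reads with it, 1051 and 939 without). For the 168-nt exon the share was 55.8% and 72.6% (64.2 ± 11.9%; 1395 and 1772 reads with it, 1088 and 655 without), so the pools stood closer for the shorter exon than for the longer. The leading transcript, Sema6d-206, holds both exons and took 36.9% of the gene's TPM in pool 1 and 42.3% in pool 2. Sema6d-208, which skips both, took 24.6% and 15.1%. In Sema6a a 165-nt coding exon was held by 74.7% and 78.1% of coding TPM (76.4 ± 2.39%) and a 51-nt exon by 18.7% and 16.4% (17.5 ± 1.64%). All these lengths are multiples of 3. Among members at a mean TPM of 5 or more, no other cassette exon had a TPM of at least 1 both with and without it in both pools, apart from the choice of ends in Nrp2.

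Plexins of class A, the signalling partners of neuropilins and of class 6 semaphorins, summed to 58.7 ± 0.891 TPM over 4 genes. Plxna1 stood at 21.5 and 21.8 TPM (21.7 ± 0.170; 5655 and 5493 reads; chr6:89316314-89362620, minus strand). Plxna2, a receptor of Sema6a, stood at 17.5 and 17.4 TPM (17.4 ± 0.021; 5251 and 4915 reads; chr1:194618218-194816869). Plxna3, which serves class 3 signals with Nrp2, stood at 14.4 and 15.2 TPM and Plxna4, which serves Sema3a with Nrp1, at 4.62 and 4.87. The order Plxna1, Plxna2, Plxna3, Plxna4 was the same in both pools.

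The class B plexins, which bind the exchange factors Arhgef11 and Arhgef12, summed to 73.7 ± 2.82 TPM, nearly all of it from Plxnb2 and Plxnb1. Plxnb2, known for neural tube closure and cerebellar granule cell development, was the highest member, at 63.0 and 59.1 TPM (61.0 ± 2.76; 5391 and 4400 reads; chr15:89155549-89180788, minus strand). It lay at percentile 81.9 of expressed protein-coding genes. Plxnb1 stood at 12.7 and 12.5 TPM. Plxnb3, which mature oligodendrocytes express, was the lowest of all members at 0.020 and 0.19 TPM, on 2 and 31 reads. Plxnd1, the receptor of Sema3e known from developing vessels, stood at 6.39 and 6.02 TPM, and Plxnc1, the receptor of Sema7a, at 2.53 and 3.21.

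The neuropilins stood close to each other overall but in opposite order in the pools. Nrp1, the Sema3a receptor that also binds vascular endothelial growth factor, stood at 17.7 and 13.0 TPM (15.4 ± 3.30; 3021 and 2139 reads; chr8:128358604-128503363). Nrp2, the Sema3f receptor, stood at 16.9 and 19.9 TPM (18.4 ± 2.16; 2902 and 3168 reads; chr1:62703285-62818695). The log2 ratio of Nrp1 to Nrp2 was 0.07 in pool 1 and -0.61 in pool 2, and on protein-coding transcripts alone 0.19 and -0.45.

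Nrp2 has 6 protein-coding transcripts in the tables, which end in either of 2 tails, called a and b. The exon of tail b lies first in the genome (chr1:62795709-62795986) and that of tail a after it (chr1:62815333-62815634); the tails carry the membrane-spanning and intracellular part of the protein. Before the tail, transcripts may carry a 15-nt extension of the last shared exon (chr1:62786302-62786316), a separate 51-nt exon (chr1:62812534-62812584), both or neither. The junctions are shown because the pools differed in these choices: the end of the shared exon in lower case, optional bases in capitals, then the start of the tail in lower case (GENCODE vM21, plus strand, 5′ to 3′).
Nrp2-204, tail a: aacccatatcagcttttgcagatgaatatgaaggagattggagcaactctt
Nrp2-203, tail a: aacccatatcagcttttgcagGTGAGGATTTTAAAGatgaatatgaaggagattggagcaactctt
Nrp2-202, tail a: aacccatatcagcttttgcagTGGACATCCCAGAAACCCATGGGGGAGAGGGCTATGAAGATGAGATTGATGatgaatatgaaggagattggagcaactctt
Nrp2-206, tail a: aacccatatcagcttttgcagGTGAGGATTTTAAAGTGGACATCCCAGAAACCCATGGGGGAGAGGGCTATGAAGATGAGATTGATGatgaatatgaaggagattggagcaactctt
Nrp2-205, tail b: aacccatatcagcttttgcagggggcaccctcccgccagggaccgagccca
Nrp2-201, tail b: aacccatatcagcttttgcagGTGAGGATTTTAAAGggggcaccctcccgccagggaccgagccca
Tail a took 70.2% and 58.5% of the protein-coding TPM of Nrp2 (64.4 ± 8.27%) and tail b 29.8% and 41.5% (35.6 ± 8.27%), so tail a was the more common in both pools. The plain tail a form without optional bases, Nrp2-204, led at 8.85 and 6.72 TPM on 1721 and 1255 reads. The 15-nt extension was on 17.6% of coding TPM in pool 1 and 39.3% in pool 2. Most of that distance came from Nrp2-203, which had 0.030 reads in pool 1 and 507 in pool 2 (0 and 2.71 TPM), and Nrp2-201, at 2.5 and 4.19 TPM. The 51-nt exon was on 13.0% and 5.56%, and Nrp2-206, which carries both optional parts, stood at 0.22 and 0.10 TPM. The optional parts are short, so the split of these forms rests on few bases, and how far the estimates can separate them was not tested.

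The end of the intracellular tail is the part of Nrp1 that is known to bind the adaptor Gipc1. The last 57 coding bases of each neuropilin, with the stop codon in capitals, are set side by side to show which Nrp2 form ends like Nrp1 (GENCODE vM21, GRCm38, plus strand, at chr8:128502755-128502814, chr1:62815578-62815637 and chr1:62795930-62795989 in this order).
Nrp1: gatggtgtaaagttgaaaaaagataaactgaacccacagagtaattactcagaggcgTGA
Nrp2 tail a: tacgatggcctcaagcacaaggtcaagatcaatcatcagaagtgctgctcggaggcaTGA
Nrp2 tail b: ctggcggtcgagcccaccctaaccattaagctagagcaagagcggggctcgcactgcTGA
Without gaps, 31 of 60 bases (51.7%) were the same in Nrp1 and tail a, against 18 (30%) in Nrp1 and tail b and 22 (36.7%) in both Nrp2 tails. The 60 bases include the stop codon, which is the same in all these ends and counts as matching in every pair. The form that is closer to Nrp1 at its end was also the more abundant Nrp2 form. Gipc1 itself stood at 130.3 and 124.1 TPM.

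**Figure D2:**
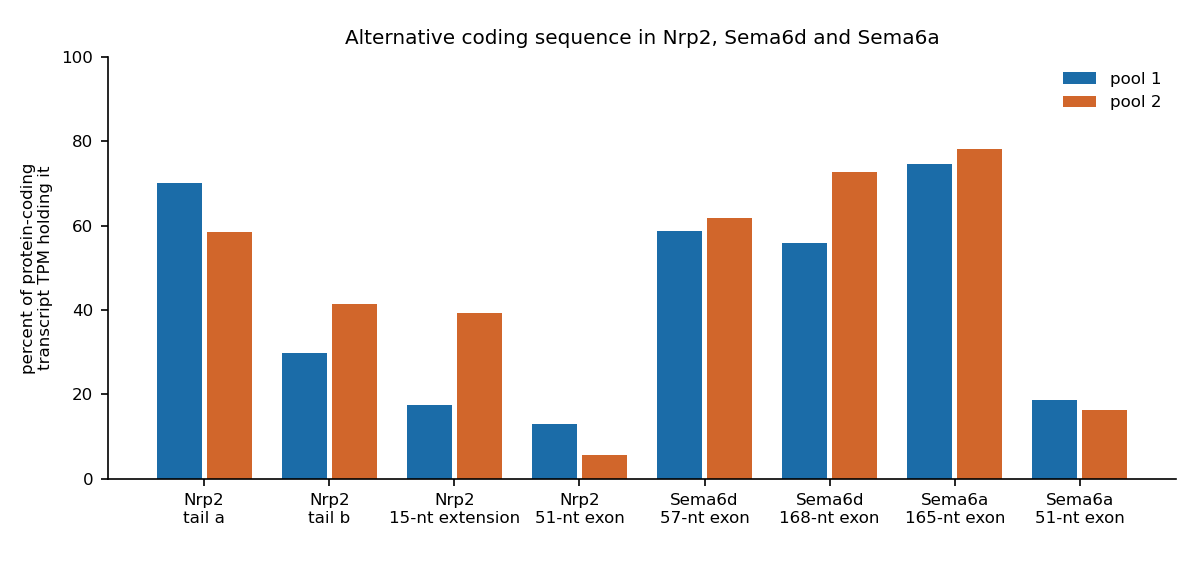
Percent of protein-coding transcript TPM that holds each alternative coding part of Nrp2, Sema6d and Sema6a, on a linear axis; bars are the single values of pool 1 and pool 2. Tail a was above tail b in both pools, and the 15-nt extension of Nrp2 went from 17.6% in pool 1 to 39.3% in pool 2.

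The gene-level TPM of several members rested in part on transcripts that are not annotated as protein-coding. Over all members, protein-coding transcripts held 71.8% and 67.7% of TPM, against 88.5% and 87.3% for expressed protein-coding nuclear genes. In reads the members' share was 91.3% and 89.4%, against 93.4% and 92.6%. Transcripts with a retained intron took 14.3% and 19.2% of the members' TPM (5.05% and 5.82% for the other set). Processed transcripts, which lack an open reading frame, took 11.5% and 11.3% (3.50% and 3.84%). Most of the members' processed-transcript TPM lay on Plxnb2-205 alone, at 33.4 and 33.8 TPM, which is described below. In 8 of the 29 expressed members the non-coding share was over 25% in both pools, against 16.9% of 13019 genes: Plxna3, Plxnb2, Sema3c, Sema3f, Sema4a, Sema5b, Sema6a and Sema6c. TPM weights a read more on a short transcript, so a share of TPM can exceed the share of reads. In reads the non-coding share of these 8 was highest in Sema6c (42.5% and 45.8%) and next in Sema6a (28.7% and 35.4%), and in Sema3c it was 23.0% and 34.6%. The leading non-coding transcripts of the 8 ran from 766 nt in Sema5b to 3936 nt in Sema6c, whose leading coding transcript has 3933 nt.

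The distance between the share of TPM and that of reads was widest in Plxnb2. Its protein-coding transcripts held 24.8 and 20.3 TPM (22.6 ± 3.15), and 60.6% and 65.6% of its TPM lay elsewhere, on 15.06% and 17.98% of its reads. The transcript behind it, Plxnb2-205, is a processed transcript of 841 nt and 3 exons at the 3′ end of the gene, with 33.4 and 33.8 TPM on 728 and 709 reads. All 834 of its bases in GENCODE vM21 also belong to the coding transcript Plxnb2-202 (6377 nt). Within its own span it skips 78 nt of Plxnb2-202, none of them coding, and it lacks the part of Plxnb2-202 upstream of its start. Reads within the shared bases cannot be assigned to either transcript by sequence alone. In pool 1 the deposited length of the gene, weighted by transcript level, was 3011 nt, less than that of either coding transcript.

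The non-coding share of TPM was lower in the other 7 members than in Plxnb2. In reads it was higher than in Plxnb2 in both pools for Plxna3, Sema3c, Sema3f, Sema6a and Sema6c. It was lower in both for Sema5b and differed between the pools for Sema4a. Coding TPM was 15.2 and 16.9 for Sema6a, where retained-intron transcripts held 49.23% and 55.96% of the gene. For Sema6c it was 9.42 and 6.52, with the transcript Sema6c-212, annotated as a target of nonsense-mediated decay, at 4.72 and 2.91 TPM. Sema5b kept 14.04 and 13 TPM, Sema3c 8 and 7.07, Plxna3 6.92 and 6.53, Sema3f 5.79 and 5.61, and Sema4a 2.77 and 3.69. Retained-intron share was higher in pool 2 in 11 of the 16 members that had any, against 71.1% of 5072 genes, a share near that of the background.

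A single transcript held under 80% of the gene's TPM in both pools in 11 of the 16 members at a mean TPM of 5 or more. Sema6a was the most divided, with its leading coding transcript Sema6a-201 at 28.5% and 23.3%, followed by Sema6c-201 at 32.5% and 31.7%. By mean share Sema6d-206 and Nrp2-204 (52.6% and 33.8%) came next, then Plxna3-201 (47.96% and 42.9%), Sema5b-201 (53.7% and 48.9%), Sema3c-201 (58.5% and 45.8%), the non-coding Plxnb2-205 (53.0% and 57.3%) and Sema3f-201 (56.8% and 60.9%). Sema3a-201 (70.8% and 69.9%) and Sema4b-201 (79.03% and 72.1%) were the least divided of the 11, and the remainder of Sema3a lay on other coding transcripts. Plxna1, Nrp1 and Plxnd1 had no TPM outside coding transcripts.

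On coding TPM alone the order of the family changed below the top. Plxnb2 was still highest by mean, but by 22.6 to 21.7 over Plxna1, and in pool 2 Plxna1 was the higher (21.8 against 20.3). Nrp2 (16.6 ± 1.65 TPM), Sema6a (16.03 ± 1.17), Plxna2 (15.7 ± 0.332), Nrp1 (15.4 ± 3.30), Sema3a (15.1 ± 0.134) and Sema6d (14.2 in each pool) followed, within the spread between the pools for several neighbours. Sema6c moved from rank 6 to 11 and Sema5b from 4 to 9. Class sums on coding transcripts were 48.9 ± 0.262 TPM for class A plexins and 33.8 ± 3.71 for class B, the reverse of their order in gene TPM. Class 6 semaphorins (40.0 ± 1.07) still exceeded class 3 (34.0 ± 1.06), class 4 (21.2 ± 1.05) and class 5 (17.3 ± 0.375), and the neuropilins stood at 32.0 ± 1.64. The coding log2 ratio of receptors to semaphorins was 0.15 and 0.09. The number of members detected stayed at 28 on coding transcripts. By mean coding TPM 2 members lay above 17.0, the median of expressed protein-coding genes, which was taken on gene TPM.

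**Figure D3:**
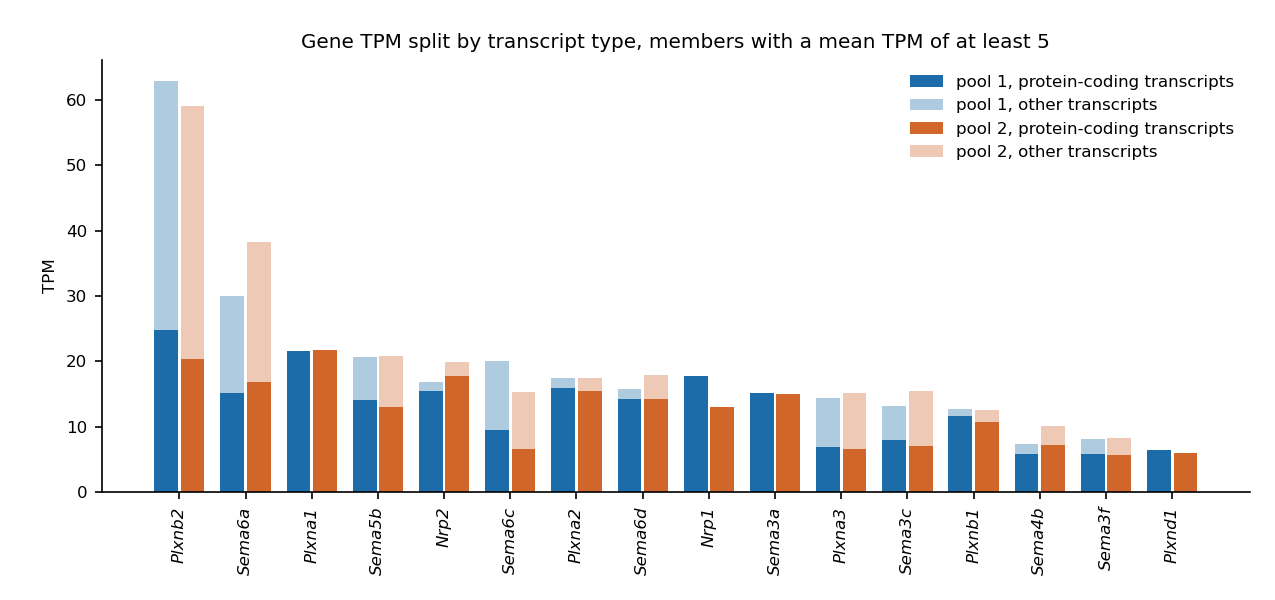
TPM on a linear axis for the 16 members at a mean TPM of 5 or more, ordered by gene TPM; each pool has its own bar, dark for protein-coding transcripts and light for other transcripts. Plxnb2 has 24.8 and 20.3 TPM on coding transcripts out of 63.0 and 59.1, while Plxna1, Nrp1 and Plxnd1 have no light part.

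Levels of ligands were set beside those of receptors they are known to bind, for 21 pairs. A log2 ratio of ligand to receptor had the same sign in both pools, and on both gene and coding TPM, for 18 of the pairs: the ligand was lower in 14 and higher in 4. Among the higher was Sema5a against Plxnb3 (7.44 and 4.39), a receptor that was not detected and had 2 and 31 reads. The pairs are a chosen list that reuses receptors and leaves out Sema3b, Sema3d, Sema3g, Sema4b, Sema4f, Sema4g and Sema5b. Their counts therefore do not describe ligands and receptors in general. Sema4d stood far below both class B receptors, with -1.72 and -2.27 against Plxnb1 and, on coding TPM, -2.68 and -2.97 against Plxnb2. Sema3a stood above Plxna4 by 1.72 and 1.62, and Sema3c above Plxnd1 by 1.04 and 1.36 (0.32 and 0.23 on coding TPM). Sema3e was below Plxnd1, with ratios of -1.45 and -2.03, and Sema3f below Nrp2, with -1.07 and -1.27.

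The sign changed with the pool or the scale for 3 pairs. Sema3a to Nrp1 was -0.22 in pool 1 and 0.20 in pool 2, so neither gene led. Sema3c to Nrp1 was -0.43 and 0.24 on gene TPM but -1.14 and -0.88 on coding TPM. Sema6a exceeded Plxna2 by 0.78 and 1.14 on gene TPM, while on coding TPM the ratio was -0.07 and 0.12. RNA levels in whole hindbrain do not show which cells hold a ligand and its receptor.

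Between the pools the members differed little, as did most expressed genes. Each ratio compares TPM + 1 of pool 2 with that of pool 1 on the log2 scale and is relative to the median gene. That median, over 14942 genes, was -0.11, and spike-ins held 16.2% and 22.2% of TPM. None of the expressed members (0 of 29) was over 1.5-fold apart, against 5.98% of all Ensembl genes and 3.14% of protein-coding nuclear genes. For 29 genes a count of 0 is near these shares. With expected counts scaled by the TMM method of edgeR or by DESeq2 size factors, 1 member, Sema4c, passed that fold, at a log2 ratio of 0.63 and 0.61. The ratios ran from -0.33 to 0.50, and no member lay outside the central 95% of genes with as many reads, which was -0.37 to 0.46 for 1000 to 10000 reads and -0.49 to 0.62 for 100 to 1000.

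Within that range, more members were higher in pool 2 than in pool 1. The relative ratio was above 0 for 22 of 29 members, against 50% of all Ensembl genes and 47.5% of protein-coding nuclear genes, with a median of 0.13. All 8 expressed plexins were above 0, from 0.02 for Plxnb2 to 0.36 for Plxnc1. Of semaphorins 13 of 19 were above 0, led by Sema4b (0.50) and Sema6a (0.45). Below 0 were Sema4d (-0.33), Sema3e (-0.33), Nrp1 (-0.31), Sema6c (-0.26), Sema4g (-0.08), Sema3b (-0.08) and Sema6b (-0.04). On coding TPM 20 of 28 members were above 0, with a median of 0.11. Plxnb2 (-0.13) and Sema3c (-0.01) were then below 0, which left 7 of 8 plexins above it.

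Genes with long transcripts were, as a whole, also higher in pool 2. Length here is the deposited length, weighted by transcript level and averaged over the pools, and not the span of the gene in the genome. The median relative ratio was 0.15 over 766 protein-coding genes of 6000 nt or more, and 0.12 over the 9 members of that length. Among those 9 were the plexins Plxna1, Plxna2, Plxna4, Plxnb1, Plxnc1 and Plxnd1. The median over the 8 expressed plexins was 0.11. Among genes of 4000 to 6000 nt it was 0.00 for 1975 genes and 0.16 for 9 members, and among those of 2000 to 4000 nt -0.04 for 5737 genes and 0.14 for 11 members. Length moved with the ratio in the longest class, and its part in the members' ratios was not tested.

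The deposited intervals around TPM gave another view of the same differences. After rescaling by the median gene, the intervals of the pools lay apart, with pool 2 higher, for 9 of 29 members (13.8% of all Ensembl genes, 13.5% of protein-coding ones), and with pool 2 lower for 2, Sema3e and Nrp1 (17.3% and 19.5%). Those higher in pool 2 were Sema3c, Sema4b, Sema5a, Sema6a, Sema6d, Plxna1, Plxna4, Plxnc1 and Nrp2. For Sema3c this held for gene TPM, whereas its coding TPM was 8 and 7.07. The intervals describe each library's own estimate and not the spread between embryos or pools, and in Sema3b, Sema3f, Sema4a and Sema4d a deposited TPM lay outside its own interval.

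Nrp1 is also known from sensory ganglia, neural crest and vessels. The 6 markers of neural crest and sensory ganglia summed to 101.9 and 73.6 TPM, with a relative ratio above 0 for 1 of 6, against 50% of all Ensembl genes, a median of -0.33 and none at a TPM of 0. The 6 endothelial markers summed to 99.5 and 89.9 TPM and did not move together: 4 of 6 had a ratio above 0, the median was 0.05 and none was at a TPM of 0. Their ratios ran from -0.31 for Cldn5 (23.6 and 17.4 TPM) to 0.42 for Tie1 (6.60 and 8.40). The 6 skeletal muscle markers summed to 77.4 and 37.0 TPM, with 0 of 6 above 0 and none at a TPM of 0. Neural lists also held genes that differed. Of the neuron markers 2 of 6 had a ratio above 0 (median -0.06), and of the neural progenitor markers 3 of 6 (median 0.01). Ratios of the progenitor markers ran from -0.78 for Hes5 to 0.25 for Nes. The sums are of deposited TPM, while the ratios are relative to the median gene. The part of any of these cells in the values of Nrp1, Sema3e and Sema4d was not tested.

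**Figure D4:**
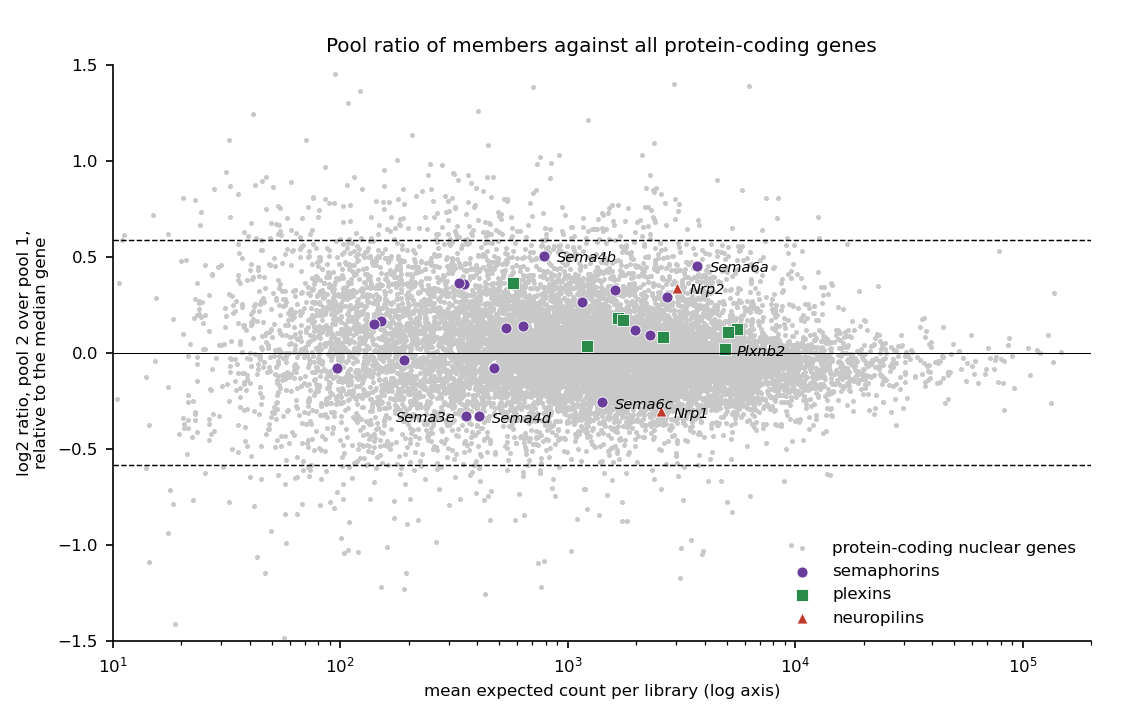
Relative log2 ratio of pool 2 to pool 1 against the mean expected count per library (log axis); grey dots are the 13020 expressed protein-coding nuclear genes, of which 12 lie beyond the axes, coloured symbols are members and dashed lines mark 1.5-fold. All 29 members drawn lie between the dashed lines, from -0.33 to 0.50.

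The other genes of the pathway, 60 genes in 6 roles, were nearly all present. Of these genes 58 of 60 were detected, against 59.4% of protein-coding nuclear genes, the exceptions being Vegfd (1.23 and 0.74) and Mical2 (0.70 and 1.05). Over 1.5-fold higher in pool 2 were 2 of 58 (4.35% of all Ensembl genes, 2.07% of protein-coding ones), and 0 were lower by that fold (1.63% and 1.07%). They were Vegfa, a growth factor that also binds Nrp1, at 1.80 and 3.66 TPM, and Arhgef12, an exchange factor bound by class B plexins, at 5.37 and 9.73. The median relative ratio of the 58 was 0.00.

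Partners of the receptors at the membrane (14 of 14 detected) were led by the integrin subunit Itgb1, on which Sema7a acts, at 144.6 and 112.8 TPM. The adhesion molecules Cntn2 (34.4 and 44.1) and Nrcam (28.1 and 21.4) of growing axons followed, and the kinase receptor Met was lowest (1.66 and 1.33). Of the vascular endothelial growth factors (4 of 5), which share neuropilins with class 3 semaphorins, Vegfb was highest (16.1 and 14.7), ahead of Vegfc (5.51 and 6.10) and Pgf (3.69 and 4.87). Proteases that cleave semaphorins or their receptors (5 of 5) ranged from Mmp14 (51.8 and 47.5), Adam10 (49.3 and 44.7) and Adam17 (24.4 in each) to Furin (2.56 and 2.84).

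Inside the cell, GTPases and their regulators (17 of 17) were led by Rac1 (289.1 and 246.4 TPM), Rnd3 (288.8 and 245.9) and Rhoa (202.5 and 201.1), with the plexin-bound exchange factor Farp2 lowest (3.47 and 4.14). Kinases (9 of 9) were led by Gsk3b (99.6 and 117.8), Pak1 (71.0 and 54.0) and Fyn (40.3 and 35.1), with Fes lowest (3.66 and 3.44). The cytoskeletal group (9 of 10) held the most abundant genes: the actin-severing Cfl1 (2401 and 2266), the collapsin response mediator Dpysl2 (663.4 and 553.3), which relays Sema3a signals to microtubules, and its relative Crmp1 (303.7 and 225.6). Cfl1, Dpysl2, Crmp1, Rac1, Rnd3 and Rhoa each stood above Plxnb2, the highest plexin, in both pools.

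**Figure D5:**
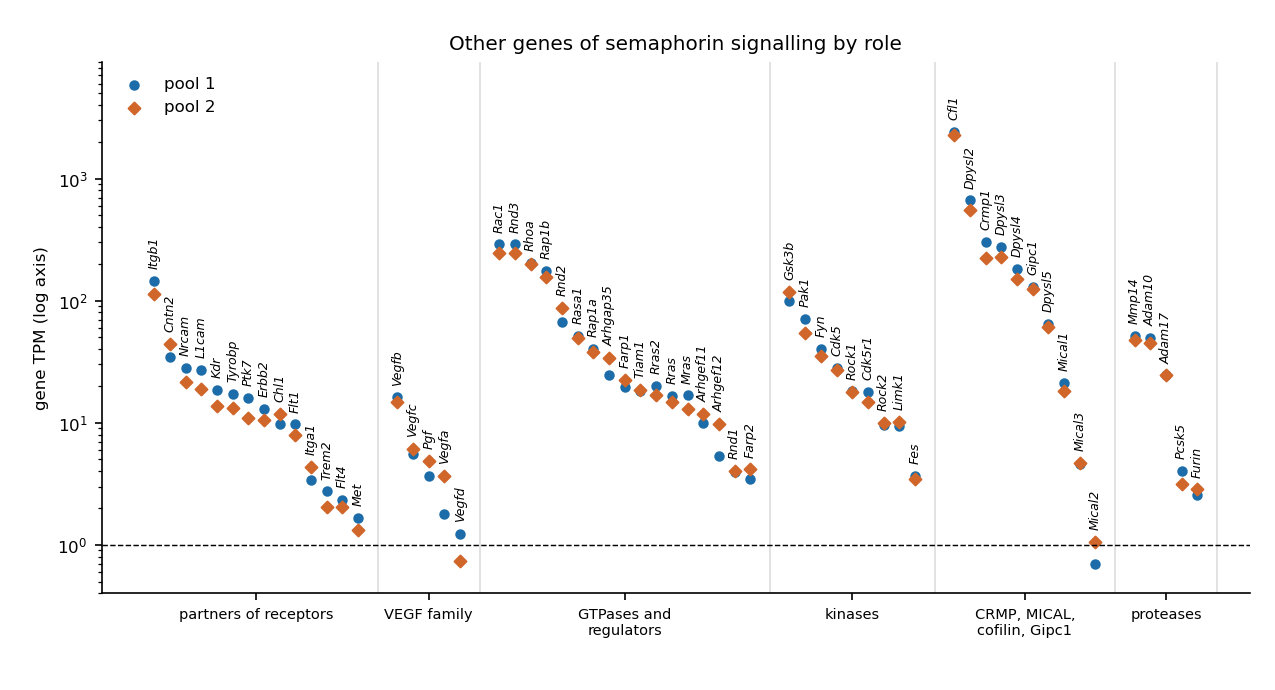
Gene TPM on a log axis for the 60 other genes of the pathway by role, ordered by mean within a role; circles are pool 1, diamonds are pool 2 and the dashed line marks a TPM of 1. Vegfa and Arhgef12 show the widest separation among detected genes, and Cfl1 is the highest.

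Several members overlap other annotated genes, and the strand setting is unknown here, so their reads cannot be fully told apart. Among neighbours with a value in the tables, which not all have, the highest was Gm37783 within Plxna2 on the same strand, at 2.34 and 4.47 TPM. Those on the opposite strand stood lower, at most 0.73 TPM in either pool (Plxna4os2).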

How the data were processed

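Total RNA from 2 pools of mouse embryonic day 11.5 hindbrain (RNA longer than 200 nt, 10 ng per library, extracted with the mirVana kit) was profiled by RNA-seq; the labels name a Smart-Seq protocol document, ERCC spike-ins and assembly mm10. The labels give the pools as biological replicates 1 and 2, each with its own sample of tissue, under a shared donor entry. Per the readme deposited beside the tables, reads were aligned to the transcriptome with annotation M4. Aligner, quantification tool, versions and strand settings: not given in the sources used here.

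Both libraries have a table of genes and another of transcripts, in which the authors deposited expected counts (estimated counts, not always whole), TPM, FPKM and, for genes, lower and upper limits of TPM of an unstated level. The transcript table also holds the percent of each transcript in its gene, per the file headers. Deposited TPM is relative to all entries, spike-ins included.

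Symbols, transcript types and GRCm38 (mm10) coordinates were taken from GENCODE vM21, which held 42462 of the 43346 Ensembl gene identifiers. Of 185 member transcripts 184 matched, and 169 had the same length there. Sequences are from GENCODE vM21 transcripts. Nrp1-201 differs in length between the tables and vM21, and its coding end is shown as in vM21.

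Detected means that both pools reached a TPM of 1. Pool ratios compared TPM + 1 of pool 2 with that of pool 1 in log2 and had the median over 14942 genes (mean TPM 1 or more) subtracted, and 1.5-fold was the limit for calling pools apart. Depth was 45340440 and 41261544 expected counts. The biological coefficient of variation (edgeR 4.0.16 in R 4.3.3, rounded expected counts) was 0.139 over 17025 genes. On simulated data for this ratio, over 14942 genes, the step was tested with known folds: 99% of genes raised 3-fold and 21% of those raised 1.25-fold passed 1.5-fold, as did 4.08% of unchanged genes in either direction. Tables and figures were made with pandas 2.3.3, NumPy 2.4.6 and Matplotlib 3.10.9 under Python 3.11.15.

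Genes named in full were the 3 highest and the lowest by mean TPM in each family (class 3 semaphorins, classes 4 to 7, plexins, neuropilins) and in each pathway role, members over 1.5-fold apart, and isoforms of members with a mean TPM of at least 5 whose leading transcript held under 80% of the gene. The members, lists and rule were chosen with earlier results of these data known. The rule for alternative exons, the 25% limit on non-coding share, the comparison of neuropilin ends, the use of TPM intervals, the bins of length and reads and the genes named beside them were chosen after the values were seen. Alternatives were other detection levels (0.5, 5), pseudocount 0.1, FPKM, rescaled TPM, TMM and DESeq2 1.42.0 size factors on expected counts, coding transcripts only, other filters and backgrounds, and each replicate alone. No promoter or protein sequence is shown.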

Additional observations from a re-analysis of the deposited data

How the results depend on the processing

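Of 117 values recomputed under alternatives, 89 kept within the spread between the pools (counts, within 1.5 times) and 28 moved. Many of these outcomes were fixed in advance. With 2 pools, a class sum, receptor ratio or transcript share from 1 pool always lies within that spread. FPKM and rescaled TPM change TPM by a constant factor per library, so the receptor ratio and transcript shares stay unchanged but for rounding. A change of sign was looked for only in the receptor ratio and the median pool ratio, and neither changed sign. The number of detected members was 16 at a TPM of at least 5, against 28 at 1, and 28 to 29 with each replicate alone. Members over 1.5-fold apart numbered 1 (Sema4c) with TMM scaling and 1 with DESeq2 size factors, against 0. The deposited length of Sema4c, for which TPM is adjusted and expected counts are not, was 3030 nt in pool 1 and 3425 nt in pool 2. Its part in this result was not tested. The median pool ratio stayed between 0.11 and 0.15 over its alternatives.

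Class sums moved in 2 ways. Rescaling TPM over protein-coding nuclear genes, which takes spike-ins and non-coding genes out of the total, raised every class: semaphorins of class 3 to 62.5, class 4 to 36.7, class 5 to 35.1, class 6 to 101.0 and class 7 to 2.20, plexins of class A to 83.9, B to 105.3, C to 4.13 and D to 8.86, and neuropilins to 48.2. Leaving out non-coding transcripts gave 34.0, 21.2, 17.3 and 40.0 for semaphorins of classes 3 to 6, 48.9 and 33.8 for plexins of classes A and B, and 32.0 for neuropilins, which put class A above class B. The share of the leading transcript, taken over coding transcripts only, was 100% for Plxna3 and Sema4b, 98% for Sema3c, 84.1% for Sema3f, 78.8% for Sema5b, 71.9% for Sema6c, 54.5% for Sema6a and 47.4% for Sema6d; both shifts follow from the smaller set of transcripts. It gave no value for Plxnb2, whose leading transcript is non-coding.

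No paired analysis was possible because the series holds 1 group. With 2 libraries, the SD of a member is a difference between 2 values, and members with 100 to 1000 reads had a wider background spread (SD of log2 ratios 0.28) than those with 1000 to 10000 (0.21). Sema3g and Plxnb3 rest on 2 to 44 reads per library.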
